A study of Mus musculus with 16 samples.

Results

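The dystrophin glycoprotein complex is the assembly that ties the actin cytoskeleton of a muscle fibre to the laminin of the basement membrane. Its transcripts were followed in mouse gastrocnemius muscle at 4 ages. Dystrophin and its relative utrophin bind actin inside the fibre, dystroglycan crosses the membrane and binds laminin through sugar chains, the sarcoglycans and sarcospan lie beside it in the membrane, and dystrobrevin and the syntrophins sit on the inner face. Loss of dystrophin or of a sarcoglycan causes muscular dystrophy, and in the dystrophin-deficient mdx mouse utrophin can take over part of dystrophin's role. The members were chosen by gene, as every array probe whose transcript identifier belongs to Dmd, Utrn, Dag1, Sgca, Sgcb, Sgcd, Dtna or Sspn. This gave 13 probes for 8 of the 21777 genes tested, namely 3 probes each for Dmd and Sgcb, 2 for Sgcd and 1 for each of the other 5 genes. All 13 probes were well above background on all 16 arrays.

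Total RNA came from untreated C57Bl/6J mice, all female, at 3 months, 15 months, 24 months or 29 months of age, with 4 samples at each and 1 single-colour Agilent array per sample. The labels do not state that the samples of an age are separate animals, so p-values measure only the spread between these samples. The 3- and 15-month arrays shared 1 slide and the 24- and 29-month arrays another. Only 15 against 3 months and 29 against 24 months therefore lie within a slide. In the other comparisons slide and age cannot be told apart. Each age also filled 1 row of its slide, row 2 at 3 and 29 months and row 1 at 15 and 24 months. Within a slide, row and age thus cannot be told apart either. Levels are given as log2 of the processed spot signal minus the 75th percentile of that array, so that 0 is the signal of the spot at that percentile and a step of 1 is a doubling. Levels of different probes cannot be set against each other. A gene was called where the Benjamini-Hochberg adjusted p of limma's moderated test, taken over all 21777 genes, was under 0.05.

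Between 48.0% and 60.9% of spots were well above background on each array, and 0 were saturated. The 8 muscle fibre markers, genes of the contractile apparatus, calcium release and glycogen use such as Acta1, Ckm and Ryr1, were all measured. Their summed log2 level, in which the brightest genes weigh most, lay between 12.4 and 12.9 on all 16 arrays. The mean deviation of the 8 from their own means over the arrays was lowest on 29-month replicate 1, at -0.41. It was highest on 15-month replicate 1, at 0.29. The 8 fibroblast markers were also all measured, with a summed log2 level of 8.19 to 8.90 at 3 months, 8.20 to 8.37 at 15 months, 6.04 to 8.03 at 24 months and 6.96 to 8.05 at 29 months. The 6 Schwann cell markers spanned 2.96 to 5.20, 3.06 to 4.93, 2.69 to 3.98 and 1.95 to 3.69 at these ages in the same order. Of the T and NK cell markers 5 of 7 were measured; their summed log2 level was 6.91 on 29-month replicate 1 and 4.73 to 4.81 on the other 29-month arrays, and the limma array weight of replicate 1, which is lower for an array whose genes lie farther from their group means, was 0.276, the lowest of the 16. The adipocyte markers, 6 of 7 measured, had a summed log2 level of 8.08 on 24-month replicate 4 and 5.48 to 6.22 on the other 24-month arrays. Satellite cell markers, 4 of 5 measured, stood at 2.41 on 29-month replicate 1 and 0.0033 to 1.09 on the other 29-month arrays. Their mean deviation was 0.49 on replicate 1 and -0.77 to 0.35 on the others, and it was 0.88 on 3-month replicate 1. The part of these other cell types in the results below was not tested. In whole muscle, fewer cells of a type and less RNA per cell cannot be told apart.

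Of the 8 members, 2 passed the test between 29 and 3 months: Dmd rose 1.94-fold and Sspn fell 1.57-fold. The same 2 of 8 passed between 24 and 3 months. Over all genes, 14.8% were called at 29 against 3 months (6.97% higher and 7.87% lower), and 4.41% at 24 against 3 months (2.23% higher and 2.19% lower). The median log2 change of the 8 members at 29 against 3 months was -0.07, with 4 of 8 above 0, against a median of -0.04 over all genes. At 24 against 3 months it was -0.05, against 0.00044 over all genes.

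**Figure D1:**
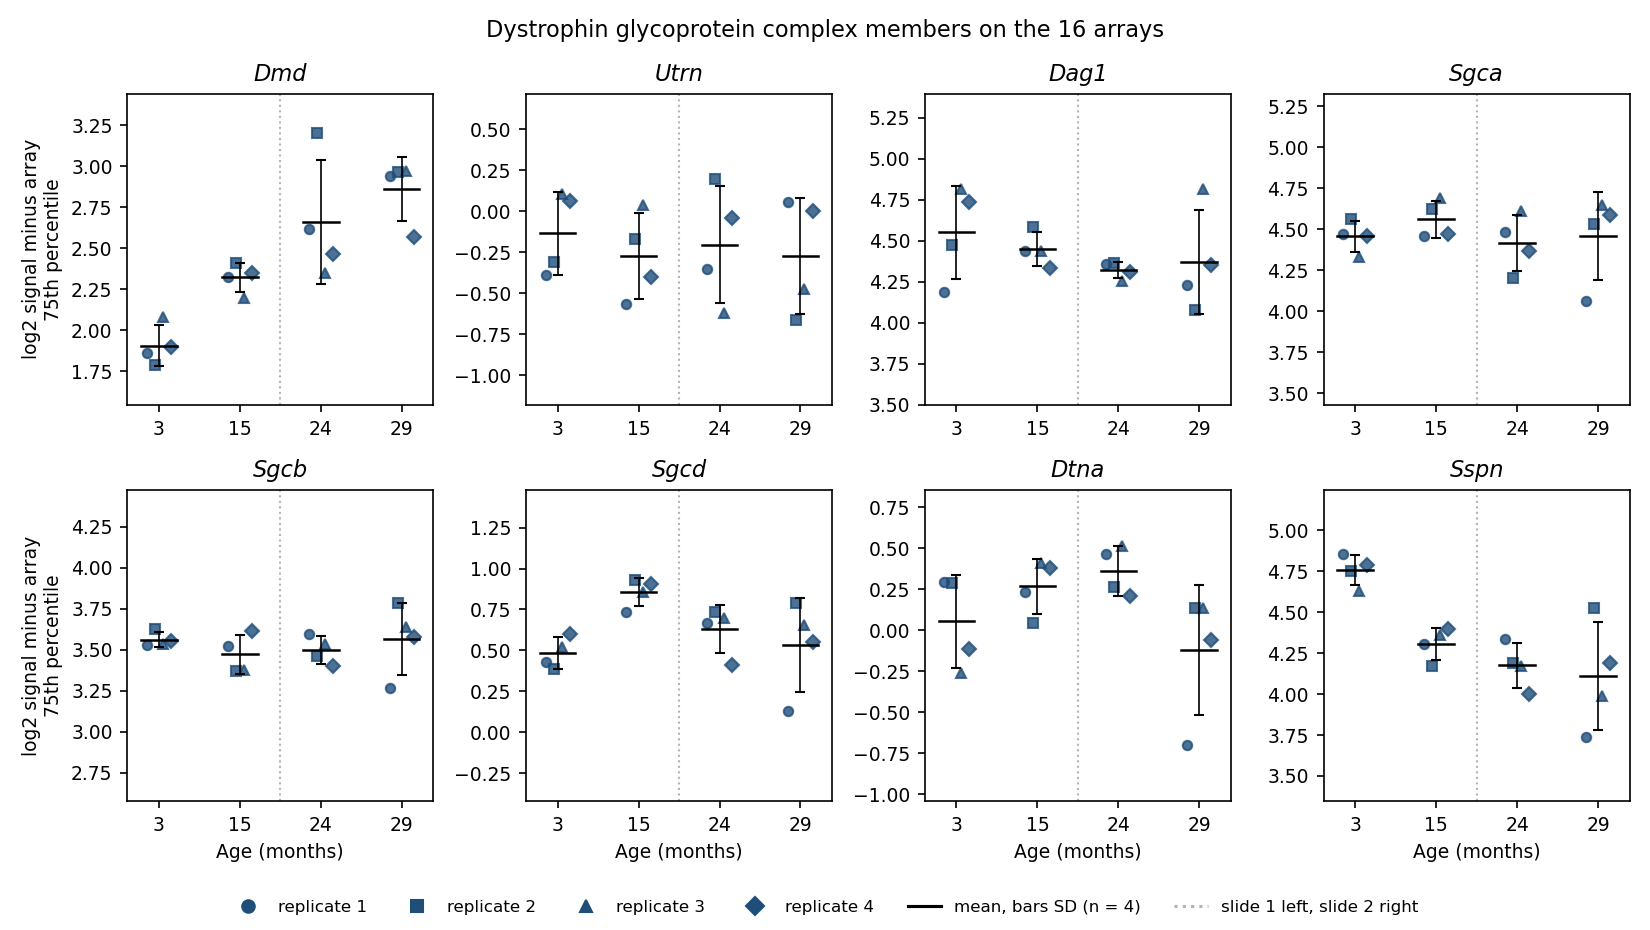
Level of each of the 8 members by age in months, as log2 signal above the 75th percentile of the array; each point is 1 array (4 per age), bars are means with SD, and the dotted line separates the 2 slides. Dmd lies higher at each older age (mean 1.91 at 3 months and 2.86 at 29 months), Sspn lower (4.76 and 4.11), and the other 6 members have 3- and 29-month arrays that overlap.

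Dmd encodes dystrophin, the long rod that joins actin to dystroglycan. RefSeq's promoter table (250 bases before to 50 after a listed start of a gene, GRCm38.p6) matched 7 of the 8 members, all but Dtna, with 10 windows. The windows of Dmd and, further on, of Sspn are shown because these are the members that passed the test. The letters searched, on both strands, were the E-box CANNTG bound by MyoD-type factors, the N-box TTCCGG, the GC box GGGCGG and TATAAA, together with the CArG box of serum response factor and the MEF2 site; capitals mark the matches. The X chromosome windows of Dmd, on the plus strand, are at chrX:82948620-82948919 for window 1 and chrX:85048045-85048344 for window 2.
Dmd window 1: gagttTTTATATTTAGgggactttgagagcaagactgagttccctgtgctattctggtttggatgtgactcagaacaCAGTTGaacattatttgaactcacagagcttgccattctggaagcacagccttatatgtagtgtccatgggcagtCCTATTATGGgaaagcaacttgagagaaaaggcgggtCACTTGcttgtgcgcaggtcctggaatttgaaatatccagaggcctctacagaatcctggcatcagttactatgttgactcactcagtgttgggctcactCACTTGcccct
Dmd window 2: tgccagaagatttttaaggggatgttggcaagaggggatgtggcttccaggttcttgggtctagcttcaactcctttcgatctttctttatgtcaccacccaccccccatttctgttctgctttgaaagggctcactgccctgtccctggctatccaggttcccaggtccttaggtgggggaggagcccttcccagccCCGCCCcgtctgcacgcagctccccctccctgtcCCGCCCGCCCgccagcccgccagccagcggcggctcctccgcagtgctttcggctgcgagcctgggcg

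Window 1 of Dmd held 3 E-boxes, 1 CArG box and 1 MEF2 site, the last overlapping a TATAAA on the minus strand. Window 2 held 3 GC boxes on the minus strand, of which 2 overlap, and none of the other letters. It lies far downstream of window 1, at a separate start. Which Dmd transcript begins at each window was not examined. Over all 32851 windows in the table, 72.3% held an E-box, 35.7% a GC box, 14.9% an N-box, 13.6% a TATAAA, 3.19% a MEF2 site and 1.63% a CArG box. Of the 7 members with a window, 6 held an E-box, 4 a GC box, 0 an N-box, 2 a TATAAA, and only Dmd a CArG box or a MEF2 site. A member was counted where any of its windows held a match. Some members have more than 1 window, so these counts cannot be set directly against the shares of single windows. A match is a description of the letters.

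The Dmd level at 3 months was 1.86, 1.79, 2.08 and 1.90 on the 4 arrays. It was 2.33, 2.41, 2.20 and 2.35 at 15 months, 2.62, 3.20, 2.35 and 2.46 at 24 months and 2.94, 2.96, 2.97 and 2.57 at 29 months. Every array of each older age lay above every 3-month array. The means ran upward with age, at 1.91 ± 0.12, 2.32 ± 0.09, 2.66 ± 0.38 and 2.86 ± 0.20 (SD, n = 4 each), but of neighbouring ages only 15 and 3 months did not overlap. The log2 change was 0.96 (SE 0.16, 95% interval 0.62 to 1.29, limma adjusted p = 0.0012) at 29 against 3 months. At 24 against 3 months it was 0.75 (SE 0.16, adjusted p = 0.0157, 1.68-fold). Over all genes, the arrays of 29 and 3 months did not overlap for 19.7%, and those of 24 and 3 months for 14.5%.

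Replicate 2 of 24 months had the highest Dmd level of all arrays and the lowest fibroblast marker level, 6.04. Without it the log2 change at 24 against 3 months was 0.57 (adjusted p = 0.0234). The call at 24 months was lost when arrays were scaled by their median (log2 change 0.61, adjusted p = 0.0573) or when only the ages compared entered the fit (adjusted p = 0.0732); the call at 29 months held in every alternative run.

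The 3 Dmd probes gave the same direction. Probe A_55_P2167922 has the highest mean signal and stands for the gene above. Probe A_55_P2167913 had levels of 0.71, 0.73, 1.16 and 0.89 at 3 months, 1.41, 1.62, 1.12 and 1.34 at 15 months, 1.49, 2.04, 1.26 and 1.42 at 24 months and 1.69, 1.73, 1.96 and 1.58 at 29 months. Its 24- and 29-month arrays all lay above the 3-month arrays, while 1 of its 15-month arrays lay just under the highest 3-month array. Probe A_52_P306697 had levels of -1.43, -2.002, -1.61 and -1.77 at 3 months, -1.26, -1.37, -1.08 and -1.07 at 15 months, -1.12, -0.82, -1.27 and -1.36 at 24 months and -1.09, -1.13, -0.996 and -1.18 at 29 months. Its arrays of every older age lay above all of its 3-month arrays.

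Tested probe by probe over 28435 probes, all 3 Dmd probes passed at 29 against 3 months, where 14.4% of all probes were called, with log2 changes of 0.96, 0.87 and 0.61 (adjusted p = 0.0012, 0.0030 and 0.0088). All 3 passed at 24 against 3 months too, where 4.5% of probes were called (0.75, 0.68 and 0.56; adjusted p = 0.0154, 0.0311 and 0.0325). The probes measure the same RNA samples, so they are not separate replicates; their levels correlated over the 16 arrays with Pearson's r of 0.79 to 0.96. Where each probe lies along the long Dmd gene was not used here.

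**Figure D2:**
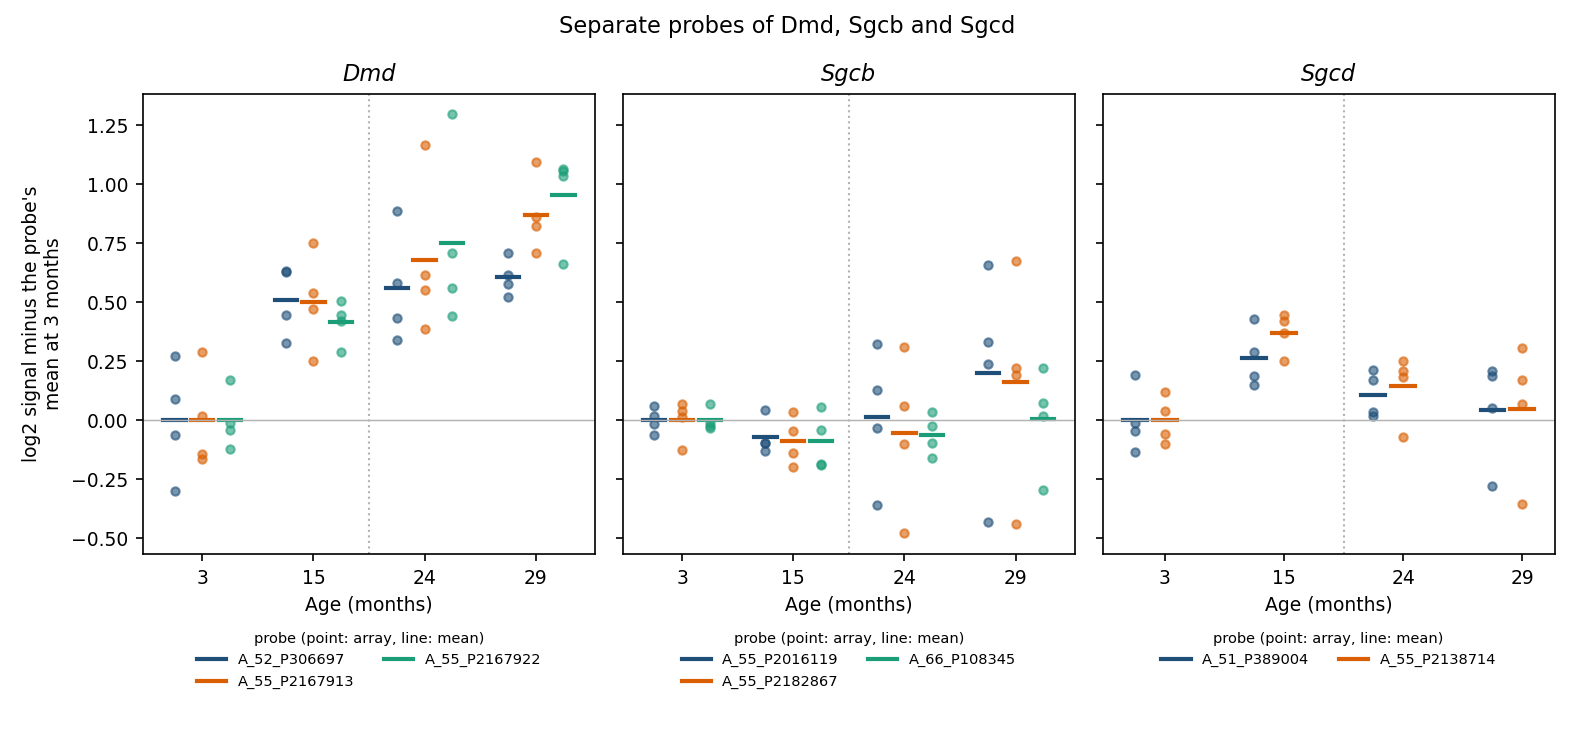
Signal of each probe of Dmd, Sgcb and Sgcd by age in months, as log2 signal minus that probe's own 3-month mean; points are arrays, lines are means of 4, and the dotted line separates the slides. All 3 Dmd probes lie above 0 at the older ages on every array, whereas the Sgcb probes spread to both sides of 0 at 24 and 29 months and the Sgcd probes stand highest at 15 months.

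Within a slide, 0 of 8 members passed limma's test at 15 against 3 months, where 0.923% of all genes were called; 3 of 8 had an unadjusted p under 0.05. These were Dmd, Sspn and Sgcd, the same 3 whose 15- and 3-month arrays did not overlap, as held for 12.3% of all genes. The share of all genes with an unadjusted p under 0.05 was not computed for any comparison. Counts at that threshold, here and below, therefore cannot be set against the shares of called genes. The Dmd log2 change was 0.42 (95% interval 0.08 to 0.75, adjusted p = 0.3135). At 29 against 24 months 0 of 8 members were called, where 1.56% of all genes were called, and 1 of 8 had an unadjusted p under 0.05. The Dmd log2 change there was 0.20 (95% interval -0.13 to 0.54, adjusted p = 0.5917). At 24 against 15 months, across slides, 0 of 8 members were called, where 0.101% of all genes were called, and 0 had an unadjusted p under 0.05.

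Fitting a linear term for age together with a slide block relied only on age differences between arrays of the same slide. It called 0 of 8 members, where 0.615% of all genes were called, and 3 had an unadjusted p under 0.05. The slope of Dmd was 0.36 log2 units per 10 months (SE 0.12, adjusted p = 0.227) and that of Sspn was -0.34 (SE 0.11, adjusted p = 0.1887). The difference between the step from 24 to 29 months and the step from 3 to 15 months passed for 0 of 8 members, where 0.615% of all genes were called, and 2 of 8 had an unadjusted p under 0.05. For Dmd this difference was -0.21 (95% interval -0.69 to 0.27). The steps differ in length and were not scaled per month, and the rows of the slides run in opposite order with age. A difference other than 0 therefore need not mean a different course with age.

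**Figure D3:**
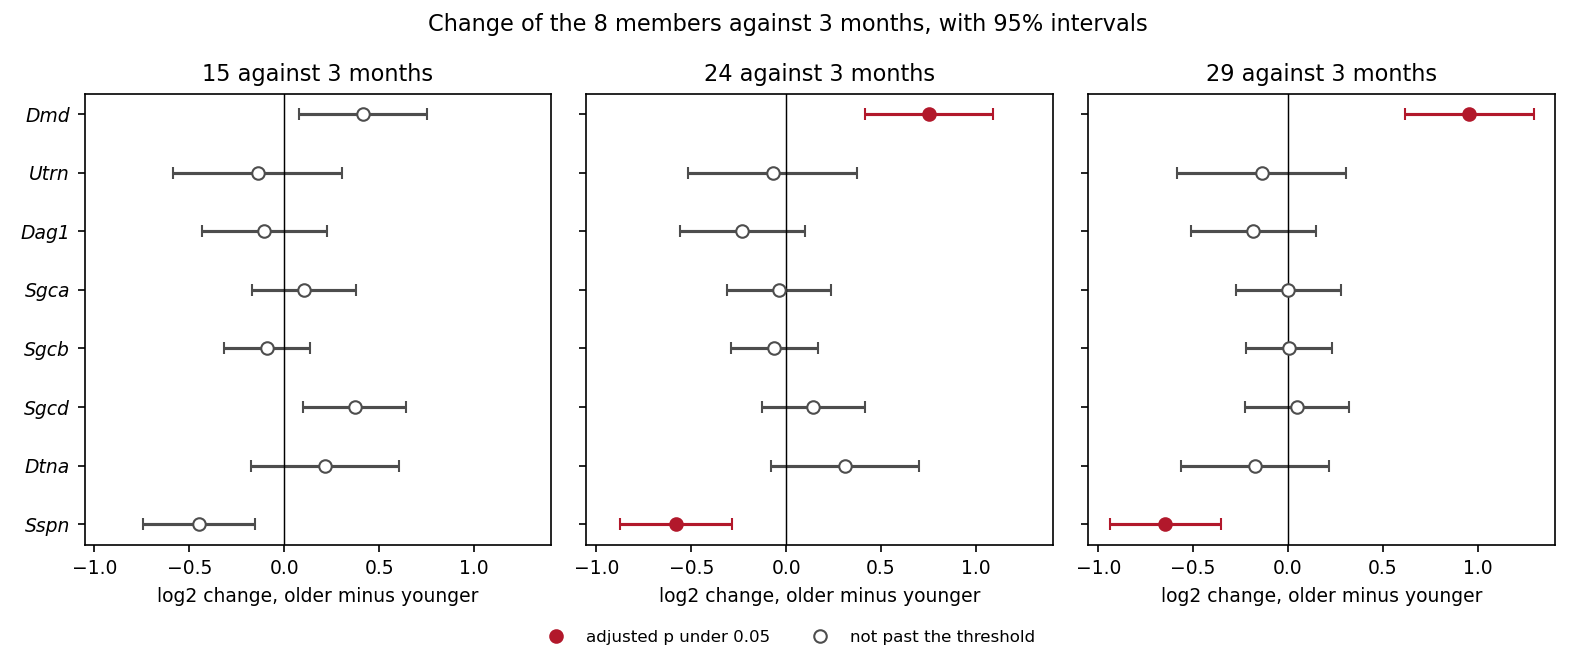
Log2 change of each member at 15, 24 and 29 against 3 months, with 95% intervals from limma; filled red points have an adjusted p under 0.05. Dmd passes on the upper side at 24 and 29 months and Sspn on the lower side at both ages, while none of the 8 passes at 15 months.

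Utrn encodes utrophin, which in adult muscle is concentrated at neuromuscular and myotendinous junctions. Its level was -0.39, -0.31, 0.10 and 0.06 at 3 months, -0.57, -0.17, 0.04 and -0.40 at 15 months, -0.35, 0.20, -0.62 and -0.04 at 24 months and 0.05, -0.66, -0.48 and -0.0011 at 29 months. The 4 ages overlapped throughout, and the spread within an age was wider than the distance between the means. The log2 change at 29 against 3 months was -0.14 (95% interval -0.58 to 0.31, limma adjusted p = 0.7171), an interval that leaves room for changes of moderate size in either direction.

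Dag1 encodes dystroglycan, whose precursor is cut into the laminin-binding alpha and the membrane-spanning beta chain. Its level was 4.19, 4.47, 4.81 and 4.73 at 3 months, 4.43, 4.59, 4.44 and 4.33 at 15 months, 4.36, 4.36, 4.26 and 4.31 at 24 months and 4.23, 4.08, 4.82 and 4.35 at 29 months. The ages overlapped, and the 24-month arrays lay closest together. The log2 change at 29 against 3 months was -0.18 (95% interval -0.51 to 0.15, adjusted p = 0.4790).

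Sgca, Sgcb and Sgcd encode alpha-, beta- and delta-sarcoglycan, which belong to 1 membrane subcomplex. Sgca had levels of 4.47, 4.56, 4.33 and 4.46 at 3 months, 4.46, 4.62, 4.69 and 4.47 at 15 months, 4.48, 4.20, 4.61 and 4.37 at 24 months and 4.06, 4.53, 4.65 and 4.59 at 29 months. The 29-month array at 4.06 is replicate 1, and the other 3 arrays of that age lie among those of the younger ages. The log2 change at 29 against 3 months was 0.0018 (95% interval -0.27 to 0.28, adjusted p = 0.994).

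Sgcb, by its brightest probe A_66_P108345, had levels of 3.53, 3.63, 3.54 and 3.55 at 3 months, 3.52, 3.37, 3.38 and 3.62 at 15 months, 3.60, 3.46, 3.54 and 3.40 at 24 months and 3.27, 3.78, 3.64 and 3.58 at 29 months. The log2 change at 29 against 3 months was 0.0059 (95% interval -0.22 to 0.23, adjusted p = 0.979). The other Sgcb probes spread more widely in the old samples: A_55_P2016119 ranged over 2.88 to 3.96 at 29 months, against 3.24 to 3.37 at 3 months, and A_55_P2182867 over 2.47 to 3.59 at 29 months, against 2.79 to 2.99 at 3 months. In each case the old range enclosed the young one.

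The level of Sgcd, by its brighter probe A_55_P2138714, had its highest mean at 15 months. Its levels were 0.43, 0.39, 0.52 and 0.60 at 3 months, 0.73, 0.93, 0.86 and 0.90 at 15 months, 0.67, 0.74, 0.70 and 0.41 at 24 months and 0.13, 0.79, 0.66 and 0.55 at 29 months. All 15-month arrays lay above all 3-month arrays, and the 24- and 29-month arrays overlapped both. The log2 change was 0.37 at 15 against 3 months (95% interval 0.10 to 0.64, adjusted p = 0.2417, unadjusted p = 0.011) and 0.05 at 29 against 3 months (95% interval -0.22 to 0.32, adjusted p = 0.8516). The difference between the later and the earlier within-slide step, not scaled per month, was -0.47 (unadjusted p = 0.0208, adjusted p = 0.2914).

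Dtna encodes alpha-dystrobrevin, which binds dystrophin and the syntrophins at the inner face of the membrane. Its levels were 0.30, 0.29, -0.26 and -0.11 at 3 months, 0.23, 0.04, 0.41 and 0.38 at 15 months, 0.47, 0.26, 0.52 and 0.21 at 24 months and -0.70, 0.13, 0.14 and -0.06 at 29 months. All 29-month arrays lay below all 24-month arrays, as arrays did in either direction for 6.92% of all genes. The log2 change at 29 against 24 months was -0.48 (95% interval -0.88 to -0.09, unadjusted p = 0.0183, adjusted p = 0.2161). Without 29-month replicate 1, the array at -0.70, it was -0.29 (adjusted p = 0.3151). At 29 against 3 months it was -0.18 (95% interval -0.57 to 0.21, adjusted p = 0.576).

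Sspn encodes sarcospan, a small protein with 4 membrane-spanning stretches that associates with the sarcoglycans. Its RefSeq windows, on the plus strand of GRCm38.p6, are at chr6:145931623-145931922 for window 1 and chr6:145933872-145934171 for window 2.
Sspn window 1: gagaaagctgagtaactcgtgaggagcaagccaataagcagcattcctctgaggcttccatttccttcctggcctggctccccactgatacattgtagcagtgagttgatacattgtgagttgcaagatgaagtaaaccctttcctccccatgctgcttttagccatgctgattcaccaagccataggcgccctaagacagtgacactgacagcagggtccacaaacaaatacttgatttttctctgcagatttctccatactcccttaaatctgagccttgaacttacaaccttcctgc
Sspn window 2: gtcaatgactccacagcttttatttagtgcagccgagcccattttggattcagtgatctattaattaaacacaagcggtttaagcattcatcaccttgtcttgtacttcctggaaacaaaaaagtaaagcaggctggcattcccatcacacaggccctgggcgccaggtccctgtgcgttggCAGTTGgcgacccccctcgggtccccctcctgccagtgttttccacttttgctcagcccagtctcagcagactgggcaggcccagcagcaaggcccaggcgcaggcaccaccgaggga

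Window 2 of Sspn held 1 E-box, in capitals, and window 1 none of the letters searched.

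The Sspn level at 3 months was 4.85, 4.75, 4.63 and 4.79. It was 4.31, 4.17, 4.36 and 4.39 at 15 months, 4.34, 4.19, 4.17 and 4.002 at 24 months and 3.74, 4.52, 3.99 and 4.19 at 29 months. Every array of every older age lay below every 3-month array, and the 3 older ages overlapped one another. Means were 4.76 ± 0.09, 4.31 ± 0.10, 4.18 ± 0.14 and 4.11 ± 0.33 in order of age (SD, n = 4 each). The log2 change was -0.65 (SE 0.14, 95% interval -0.94 to -0.35, adjusted p = 0.0061) at 29 against 3 months. It was -0.58 (SE 0.14, adjusted p = 0.0289, 1.49-fold lower) at 24 against 3 months and -0.45 (95% interval -0.74 to -0.15, adjusted p = 0.1717, 1.36-fold lower) at 15 against 3 months, within a slide.

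The fibroblast marker level given above was also lower at 24 and 29 than at 3 months. At 15 months the Sspn arrays already lay below those of 3 months. The summed fibroblast level there was 8.20 to 8.37, within the 3-month range of 8.19 to 8.90. The mean deviation of the same markers ran lower, at 0.335, 0.265, 0.131 and 0.516 on the 15-month arrays. Only replicate 4, at 0.516, reached the 3-month arrays, the lowest of which stood at 0.445. A link between fibroblast content and Sspn was not tested. Without 29-month replicate 1, the lowest Sspn array, the log2 change at 29 against 3 months was -0.52 (adjusted p = 0.0134). Scaling by the array median ended the Sspn call at 29 months (log2 change -0.65, adjusted p = 0.0588). The call at 24 months was lost with that scaling (-0.72, adjusted p = 0.068), with no filter on dim probes (adjusted p = 0.0689), under a minimum of 1.5-fold, and without 3-month replicate 1, 2 or 4 or 24-month replicate 2 or 4, where the log2 change was -0.52 to -0.59 and the adjusted p reached 0.0779.

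Dmd and Sspn ran opposite ways over age (Pearson's r of -0.72 over the 16 arrays), but not within ages, where r of the deviations from the age means was -0.06. Sspn correlated with the sarcoglycans among arrays of 1 age, with r within ages of 0.80 for Sgcb, 0.69 for Sgcd and 0.46 for Sgca. The r of Sspn within ages was 0.71 with Dtna, -0.47 with Utrn and -0.41 with Dag1. These values share the 16 arrays, and 29-month replicate 1 was the lowest of its age for Sgca, Sgcb, Sgcd, Dtna and Sspn, 5 of the 8 members. The median SD of the 8 members within an age was 0.11, 0.11, 0.15 and 0.30 from 3 to 29 months, against 0.17, 0.16, 0.23 and 0.25 over all genes.

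The genes most like each member were taken as the 2 with the highest Pearson's r over the 16 arrays among 13344 genes with a symbol. They were Clk4 (r = 0.95) and Mpp5 (0.93) for Dmd, and Nit2 (0.97) and Mlf1 (0.94) for Sspn. Within ages, r fell to 0.87 for Clk4 and 0.71 for Mpp5, and to 0.93 for Nit2 and 0.80 for Mlf1. For the sarcoglycans they were Gps1 and Xirp2 (0.94 and 0.93) for Sgca, Actr10 and Mpp6 (0.93 and 0.90) for Sgcb and Sars and Mgmt (both 0.89) for Sgcd. For Utrn they were Arhgef1 (0.84) and Eno2 (0.82), for Dag1 Mad1l1 (0.86) and Kcnj12 (0.85), and for Dtna Mrpl28 (0.90) and Hddc3 (0.89). These are the highest of many correlations over the same arrays.

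Other subunits of the complex, epsilon- and zeta-sarcoglycan, beta-dystrobrevin and the syntrophins, were listed as 8 genes, of which 6 were tested (not Sntg1 and Sntg2). At 29 against 3 months 0 were called higher and 1 lower, where 6.97% and 7.87% of all genes were. The median log2 change was -0.21 over the 6. In each other comparison limma called 0 of them; at an unadjusted p under 0.05 there were 3 at 24 against 3 months and 1 at 24 against 15 months, with 0 at 15 against 3 months or at 29 against 24 months. The called gene was Sgce, epsilon-sarcoglycan, which is made in many tissues. Its level averaged -0.25 ± 0.18 at 29 months and 0.36 ± 0.07 at 3 months (SD, n = 4 each), and it fell by 0.60 log2 units (adjusted p = 0.0348). It no longer passed once any single 3-month array was left out, or 29-month replicate 1, 2 or 3. The log2 change was then -0.56 to -0.63, with an adjusted p up to 0.0860. The fibroblast markers were also lower at 29 than at 3 months, but a link between them and Sgce was not tested. The Sgce call was also lost with median scaling (adjusted p = 0.106), no filter on dim probes (0.0744), array weights (0.0519) and without the 4 arrays of lowest weight (0.0975). Sntb2, beta-2-syntrophin, had a log2 change of -0.66 at 24 against 3 months (adjusted p = 0.144). Dtnb, beta-dystrobrevin, had the smallest p of the list at 29 against 24 months, with a log2 change of -0.39 (adjusted p = 0.615).

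Among the 10 binding partners, all tested, 1 was called higher and 1 lower at 29 against 3 months, where 6.97% and 7.87% of all genes were. The median log2 change of the partners was 0.03. Cav3 encodes caveolin-3, the muscle protein of caveolae, which binds beta-dystroglycan. It averaged 5.39 ± 0.13, 4.76 ± 0.13, 4.53 ± 0.19 and 4.38 ± 0.24 from 3 to 29 months (SD, n = 4 each). Relative to 3 months it was 2.02-fold lower at 29 months (difference of -1.01 log2 units, SE 0.13, limma adjusted p = 0.000208), and 1.82-fold lower at 24 months (-0.86, adjusted p = 0.00238). Within a slide it was 1.55-fold lower at 15 than at 3 months (-0.63, adjusted p = 0.0332).

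The Cav3 slope with slide as a block, -0.49 log2 units per 10 months, passed limma's test (adjusted p = 0.0371). It draws on the same 3- and 15-month arrays as the difference just given, so it is not separate support. On the other slide, at 29 against 24 months, the Cav3 log2 change was -0.15 (adjusted p = 0.639). The 15-month difference no longer passed once any single 3-month array, or 15-month replicate 1, 2 or 3, was left out (adjusted p up to 0.122), nor did the slope once any single 3- or 15-month array, or 24-month replicate 3, was left out (up to 0.123). Both were also lost with scaling by the median or no filter on dim probes (adjusted p up to 0.302 and 0.388). Flnc encodes filamin C, which crosslinks actin and binds sarcoglycans. It averaged 7.44 ± 0.27 at 29 months and 6.65 ± 0.28 at 3 months (SD, n = 4 each), 1.73-fold higher (log2 change 0.79, adjusted p = 0.0099). Nos1, the neuronal nitric oxide synthase that the complex anchors through syntrophin, had a log2 change of 0.56 at 15 against 3 months (adjusted p = 0.160) and 0.05 at 29 against 3 months (adjusted p = 0.872). Sync, syncoilin, an intermediate filament protein that binds alpha-dystrobrevin, had a log2 change of 0.44 at 24 against 15 months (adjusted p = 0.354).

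The enzymes that build the laminin-binding sugar of alpha-dystroglycan were listed as 15 genes, all tested. At 29 against 3 months 0 were called higher and 3 lower, where 6.97% and 7.87% of all genes were. Of the 15 changes 12 were below 0, but the share of all genes below 0 was not computed. The median log2 change was -0.22, against -0.04 over all genes. At 24 against 3 months 1 was called lower, where 2.19% of all genes were. At 29 against 24 months 1 was called lower, where 1.56% of all genes were called in either direction. At 15 against 3 months, where 0.923% of all genes were called, limma called 0 of the 15. At an unadjusted p under 0.05, 2 were lower there and 0 higher. Pomgnt2, which extends the chain, had a log2 change of -0.37 at 24 against 15 months (adjusted p = 0.260).

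Pomk, the kinase that phosphorylates the first mannose of the chain, averaged 1.22 ± 0.09, 1.01 ± 0.18, 0.80 ± 0.23 and 0.42 ± 0.12 from 3 to 29 months (SD, n = 4 each). It was 1.74-fold lower at 29 than at 3 months (log2 change -0.80, SE 0.12, adjusted p = 0.000689). B3galnt2, which adds N-acetylgalactosamine to that chain, averaged 4.34 ± 0.15, 3.91 ± 0.21, 4.05 ± 0.19 and 3.49 ± 0.18 at the 4 ages. It was 1.81-fold lower at 29 than at 3 months (-0.85, adjusted p = 0.000779). Both calls held in every alternative run.

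B4gat1, which adds the glucuronic acid that primes the laminin-binding repeat, averaged 2.28 ± 0.04 at 29 months and 2.60 ± 0.09 at 3 months (SD, n = 4 each), 1.25-fold lower (log2 change -0.32, adjusted p = 0.0189). B4gat1 was 1.32-fold lower at 24 than at 3 months (-0.40, adjusted p = 0.0147). The B4gat1 calls were lost without 3-month replicate 3 (adjusted p = 0.0572 at 29 months and 0.0520 at 24 months) and, being under 1.5-fold, with that minimum. The 29-month call was also lost with median scaling (adjusted p = 0.204), only the ages compared (0.0753) and no filter on dim probes (0.0549). The 24-month call was also lost with median scaling (adjusted p = 0.0541), only the ages compared (0.0638) and without the 4 arrays of lowest weight (0.0855). The fall of B3galnt2 at 29 against 24 months, within a slide (-0.56, adjusted p = 0.0486), was lost in 14 of 16 fits that left out 1 array (up to 0.121). It was also lost with median scaling (log2 change -0.42, adjusted p = 0.405), only the ages compared (0.265), no filter on dim probes (0.115), array weights (0.0963), a minimum of 1.5-fold and without the 4 arrays of lowest weight (0.188).

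**Figure D4:**
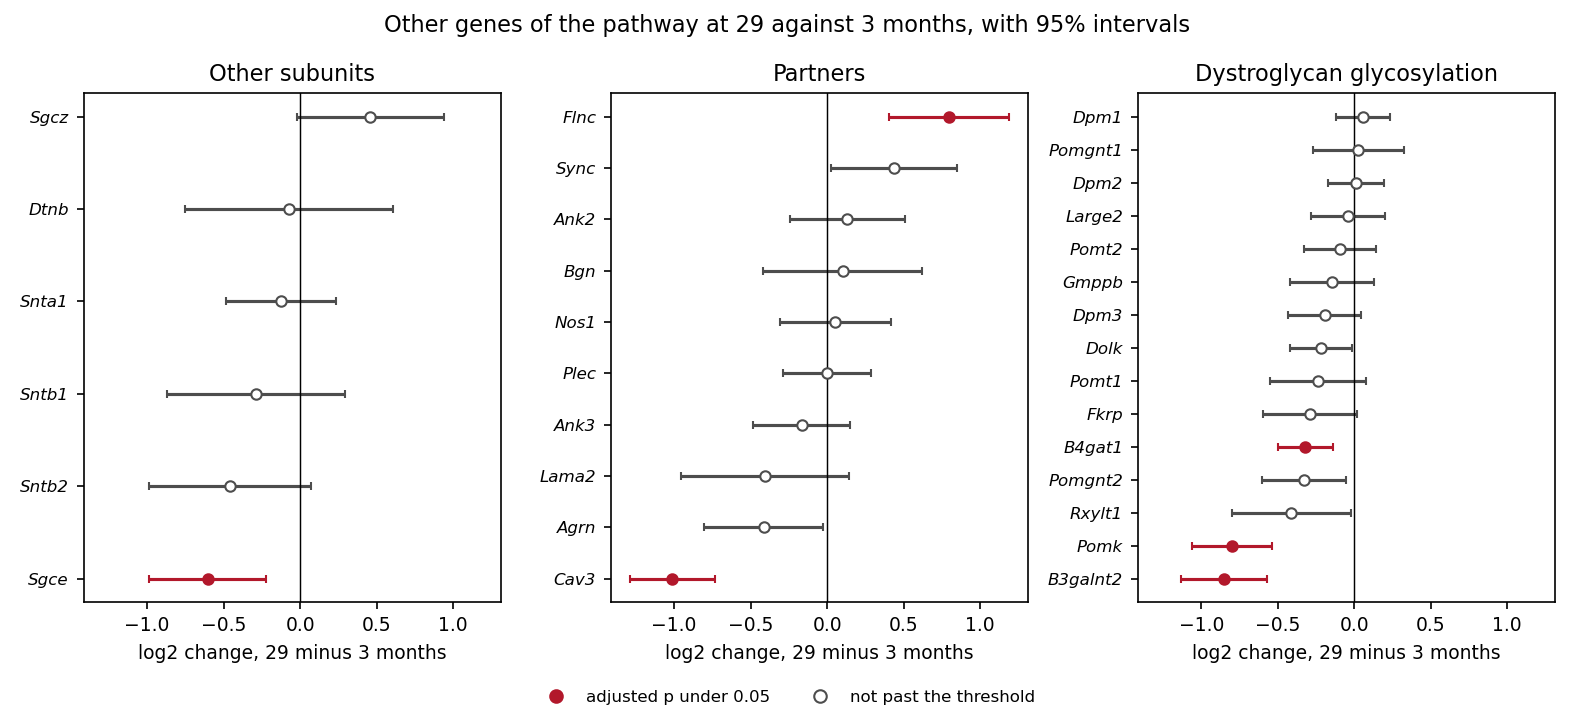
Log2 change at 29 against 3 months, with 95% intervals, of the other subunits, binding partners and alpha-dystroglycan glycosylation enzymes that were tested; filled points have an adjusted p under 0.05. The called genes on the lower side are Sgce, Cav3, B3galnt2, Pomk and B4gat1, and Flnc is the called gene on the upper side.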

How the data were processed

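Gastrocnemius RNA of 16 samples was hybridised to single-colour Cy3 arrays. Per the file headers, Agilent Feature Extraction 10.7.1.1 gave each spot an intensity that is background-subtracted and detrended, with no scaling between arrays; the design build is mm9. The deposited series table holds log2 values; the authors' normalization behind them is not stated in the sources at hand. Its rows follow the spot numbers (r 0.985 to 0.993 with the arrays), and it served as an alternative only.

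Controls and 93 probes with outlier flags were left out. The log2 intensity minus the array's 75th percentile was taken, and spots of a probe were averaged. A probe was kept where some age had it well above background on each of its 4 arrays (28435 probes), and for each of 21777 genes the probe of highest mean stood for the gene. Transcript identifiers of 26534 of 55588 probes matched a RefSeq gene, which gave a symbol to 13352 of the genes tested. The precision is limited by the 4 arrays per age. limma 3.58.1 (R 4.3.3) fitted 4 age means on all 16 arrays (residual df 12), and Benjamini-Hochberg adjustment ran over all genes. On simulated data for 29 against 3 months, run on 21777 genes, it recovered 68 of 100 genes changed 2-fold and 93 of 100 changed 4-fold. Only these genes were changed there, with independent noise for each gene, whereas 3231 genes were called in the data. The adjusted p depends on how many genes change, so these shares do not carry over directly.

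All members and their probes are named. Pathway genes are named if called in a comparison or of smallest p in their list; some listed genes are not reported here. The members and lists were chosen with earlier results of these data known. Alternatives changed the scaling, background correction (normexp on median spot and background intensities, offset 50), probe filter, probe rule, samples fitted, moderation, array weights, replicate block and fold minimum, and left out each array in turn.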

Additional observations from a re-analysis of the deposited data

Results flagged for a closer look

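In Dmd, 29-month replicate 4 stood apart from its group: its level was 2.569 on the log2 scale above the array's 75th percentile, while the other 3 arrays of that age lay at 2.94 to 2.97. Its distance to the nearest array, divided by the range of the group, passed Dixon's 95% critical value for 4 samples. Of 32 groups of members by age and 20 groups of further probes tested, this was the 1 that passed, where chance passes about 1 in 20. Replicate 4 still lay above every 3-month array.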

How the results depend on the processing

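The rise of Dmd at 29 against 3 months held in all 12 planned and added settings and in the 16 fits without 1 array (log2 change 0.81 to 1.05, adjusted p up to 0.0053). Members called at 29 against 3 months numbered 1 instead of 2 with median scaling. At 24 against 3 months they numbered 0 with median scaling, and 1 with no filter on dim probes, with only the ages compared, with a minimum of 1.5-fold and with the replicate block, and 1 to 2 over the fits leaving out 1 array. At 15 against 3 months, where 0 were called, 2 were called with only the ages compared (Dmd, Sspn), 3 with array weights (Dmd, Sspn, Sgcd) and 2 without the 4 arrays of lowest weight (Sspn, Sgcd), a setting chosen after seeing the data. For the straight line, where 0 were called, 2 were called with no slide term (Dmd, Sspn) and 1 without those 4 arrays (Dmd). The cause was not tested.

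Members changed sign only in comparisons that did not pass. Sgca at 29 against 3 months was -0.0049 with quantile normalization, -0.0035 with median scaling, -0.041 with normexp, -0.026 in the series table and -0.062 to 0.133 leaving out 1 array. Sgcb was -0.097 with normexp, -0.090 in the series table and -0.067 to 0.106 leaving out 1 array. Leaving out 1 array gave -0.039 to 0.181 for Sgcd and -0.280 to 0.017 for Dtna. Sspn at 29 against 24 months was 0.073 with median scaling, 0.037 with array weights, 0.101 without the 4 arrays and -0.204 to 0.057 leaving out 1 array.

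Median scaling moved the median of all genes to -0.14 at 24 against 3 months and -0.15 at 24 against 15 months. Counts of called genes that moved over 1.5 times were, for 29 against 3 months, 3231 to 1556 with median scaling, 1993 with only the ages compared and 1971 at 1.5-fold. For 24 against 3 months, 961 became 530 with median scaling, 1759 with normexp, 1468 in the series table, 473 with no filter and 560 with only the ages compared. For 15 against 3 months, 201 became 89 with median scaling, 317 in the series table, 101 with no filter, 713 with only the ages compared, 1140 with array weights and 788 without the 4 arrays. For 29 against 24 months, 340 became 572 with normexp, 1106 in the series table, 142 with no filter, 9 with only the ages compared, 211 with the block, 200 with array weights and 42 without the 4 arrays. For 24 against 15 months, 22 became 55 in the series table, 12 with only the ages compared, 34 with the block, 154 with array weights and 9 without the 4 arrays. For the straight line, 134 became 68 with median scaling, 66 with no filter, 2964 with no slide term and 596 without the 4 arrays. For the difference of steps, 134 became 54 with median scaling, 357 with normexp, 992 in the series table, 48 with no filter and 242 with array weights. Leaving out 1 array gave 2218 to 3582 at 29 against 3 months, 479 (without 3-month replicate 4) to 1218 at 24 against 3 months, and 75 (without 15-month replicate 2) to 278 at 15 against 3 months. It gave 124 (without 29-month replicate 3) to 438 at 29 against 24 months, and 2 (without 15-month replicate 2) to 59 (without 29-month replicate 1) at 24 against 15 months. It gave 46 to 184 for the straight line and 51 to 160 for the difference of steps, both lowest without 15-month replicate 2.

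Samples with the same replicate number did not deviate together: r over genes was -0.47 to 0.30 for 24 same-number pairs and -0.51 to 0.47 for 72 others, and 2 of 16 arrays correlated best with their own number. With the replicate block, Sspn at 24 against 3 months had an adjusted p of 0.0563, and B3galnt2 at 29 against 24 months one of 0.0802.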
